A study of Mus musculus with 12 samples.

Results

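An untreated 24 h culture of AT2 cells (type II pneumocytes of the alveolus) taken from *AhR f/f* mice was described on its own. Its members are the 3 libraries whose titles name them as the PBS controls of the WT genotype, 3 of the 12 libraries of the study. The study asked what the aryl hydrocarbon receptor (AhR) in AT2 cells does in allergic airway inflammation, and no other group of it is used here. The cells came from C57BL/6 mice aged 6 to 8 weeks that carried a floxed *Ahr* gene, and the labels name no Cre transgene for them. Lungs were digested with Dispase, cells bearing CD16/32, CD45, Ter119 or Sca-1 were removed with magnetic beads, and cells that stuck to dishes coated with mouse IgG within 2 h were left behind. The remaining cells were cultured on collagen I with PBS for 24 h before RNA was taken. The values therefore describe a whole culture enriched for AT2 cells, with any other cells in it, after isolation and a short time on coated plastic. The labels do not say whether the replicates came from separate mice or separate cultures, so the spread between them may be technical.

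AT2 cells are cuboidal cells of the lung alveolus that make surfactant, a mixture of phospholipids and proteins that lowers surface tension at the air-liquid boundary. They store it in lamellar bodies, which are organelles related to lysosomes, and they also serve as progenitors of the thin AT1 cells through which gas is exchanged. In culture on a stiff surface AT2 cells are known to lose surfactant gene expression over days and to pass through a keratin-rich transitional state toward AT1 cells.

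The values are a deposited count and a deposited FPKM (a count scaled by transcript length and sequencing depth) for each of 55450 genes. Total counts were 73979556, 68878065 and 78769872 in replicates 1, 2 and 3, and all values below are given in that order. Levels of different genes are compared as FPKM, which takes gene length into account, and the spread of 1 gene between libraries is also given as CPM (counts scaled to the library total, after TMM normalization). Every ± is an SD over the 3 libraries. A gene was called expressed at 1 FPKM or more in each library. A gene with no count could still have up to 3 counts, or up to 0.0406, 0.0436 and 0.0381 CPM, and such a gene was not detectable at this depth. These floors cover counting error only.

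Replicate 1 stood apart from the other libraries in many genes of white blood cells and in a small number of single genes. Across genes, the Pearson correlation of log2(FPKM + 1) was 0.986 between replicates 1 and 2, 0.983 between replicates 1 and 3 and 0.992 between replicates 2 and 3. Genes are not independent replicates, so these are descriptions. Of 9476 protein-coding genes with a mean of 10 CPM or more, 83 were at least 3-fold above both other libraries in replicate 1, against 6 in replicate 2 and 7 in replicate 3. Of the 83 genes, 17 belong to the 6 leukocyte lists described further on, which have 23 genes among the 9476. In the other direction 15 genes were at least 3-fold below both other libraries in replicate 1, 13 in replicate 2 and 48 in replicate 3. Of these 48 genes 7 are of the leukocyte lists, so replicate 3 also lay below replicate 2 in such genes. No pair of libraries agreed within sampling noise, so none was merged as a repeat of another, which does not show that they are separate mice. Several results that rest on replicate 1 are given with and without it, and the others by the value of each library.

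The culture expressed 11500 of the 55450 genes, which is 20.7%, and 10361 of the 21951 protein-coding genes, which is 47.2%. The number of expressed genes of each list below is to be read against this share. A count was found for 26873 genes in at least 1 library and for 20048 genes in each library, while 28577 genes had none. Protein-coding genes took 96.2%, 96.9% and 96.8% of the counts, mitochondrial genes took 3.68%, 3.60% and 2.81%, and the 84 genes of ribosomal proteins took 5.09%, 4.74% and 4.79%. The 10 most abundant genes held 5.10%, 5.53% and 5.23% of the counts, and the 100 most abundant held 18.7%, 19.7% and 18.9%. The median of mean FPKM was 0 over all genes, 1.00 over protein-coding genes and 7.57 over expressed genes. Among protein-coding genes 28 had a mean of 1000 FPKM or more, 374 lay between 100 and 1000 FPKM, 3908 between 10 and 100 FPKM and 6672 between 1 and 10 FPKM. Another 3108 lay between 0.1 and 1 FPKM, and 7861 lay below 0.1 FPKM.

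The most abundant transcript per length was not a surfactant gene but *Scgb1a1*, which encodes the secretoglobin CC10 and marks club cells of the airway. Its levels were 8993, 9796 and 14106 FPKM, with a mean of 10965 ± 2749.7 FPKM (n = 3), and replicate 3 was above the other libraries. *Sftpc*, which encodes surfactant protein C and is the classical marker of AT2 cells, was at 5307, 5284 and 4683 FPKM, with a mean of 5091 ± 354 FPKM (n = 3). It ranked 3 among protein-coding genes, behind *Scgb1a1* and the mitochondrial gene *mt-Co1*, which encodes a subunit of cytochrome c oxidase. The lower end of *Scgb1a1* (8993 FPKM) lay above the upper end of *Sftpc* (5307 FPKM). *Ftl1*, the light chain of the iron store ferritin, followed at 3203, 3495 and 3214 FPKM. *Lyz2*, a lysozyme made by AT2 cells and by macrophages, was at 3105, 3438 and 3004 FPKM. *Lyz2* has a close paralog in *Lyz1* (354, 283 and 208 FPKM), and how reads were shared between them is uncertain. On the CPM scale, which does not correct for length, the order was *mt-Co1* at 10106 ± 1309 CPM, the translation factor *Eef1a1* at 6704 ± 358 CPM, *Sftpc* at 5854 ± 382 CPM and *Scgb1a1* at 5812 ± 1496 CPM. The SDs of *Sftpc* and *Scgb1a1* overlap on that scale, so their order in CPM is not resolved.

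Among the 25 genes with the highest mean FPKM, 21 were protein-coding and 10 of these were mitochondrial genes of oxidative phosphorylation. The nuclear ones besides those named were *S100a11* at 2461 ± 206 FPKM, a calcium-binding protein, *Krt8* at 1715 ± 243 FPKM, a keratin of simple epithelium, *Lgals3* at 1688 ± 276 FPKM, the lectin galectin-3, *Tmsb4x* at 1683 ± 111 FPKM, which binds actin monomers, and the ribosomal proteins *Rplp1* and *Rplp0*. *Gm22133*, *Gm26377* and *Gm27597* are annotated as microRNA genes and are also on this list, but each lies inside an abundant mRNA gene (*Ftl1*, *Eef1a1* and *Rpl19*, the last named for this overlap alone), so their reads cannot be told apart from those of the host. *Gm29216* is a nuclear copy of mitochondrial sequence and is uncertain for the same reason. The 25 genes with the highest mean CPM were all protein-coding and further held *Clu* at 3045 ± 925 CPM, the chaperone clusterin, *Gprc5a* at 2858 ± 484 CPM, *Krt7* at 2653 ± 329.9 CPM, the autophagy receptor *Sqstm1* at 2310.4 ± 177 CPM and the lysosomal protease *Ctsd* at 2023 ± 218 CPM. They also held the actin genes *Actg1* and *Actb*, the chaperone *Hsp90ab1*, the elongation factor *Eef2* and the ferritin heavy chain *Fth1*. *Clu* was highest in replicate 3, with 2159.9, 2971 and 4005 CPM.

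**Figure D1:**
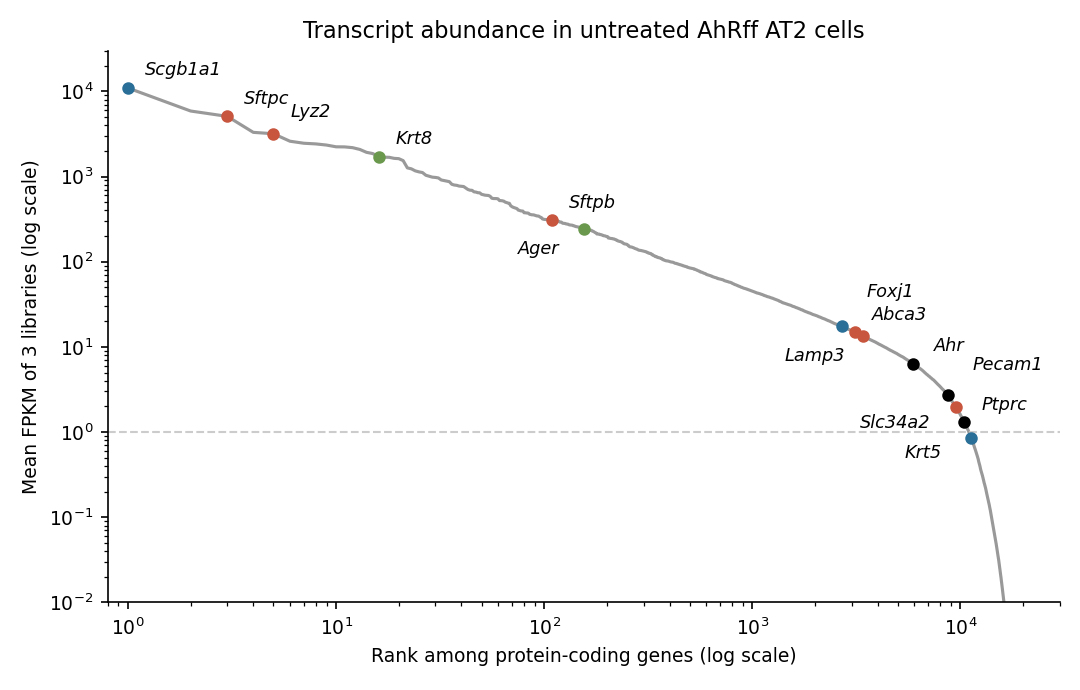
Mean FPKM of the 3 libraries (vertical, log scale) of each protein-coding gene with a count against its rank (horizontal, log scale), with the dashed line at 1 FPKM. Named genes are marked: the airway genes *Scgb1a1*, *Foxj1* and *Krt5* in blue, AT2 genes in red, *Krt8* and *Ager* in green and others in black, with *Scgb1a1* at rank 1, *Sftpc* at rank 3 and *Abca3* at rank 3122.

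All 4 defining markers of AT2 cells were expressed in each library, over a wide range of levels. *Sftpb*, whose product is required to spread the surfactant film, was at 309, 333 and 280.0 FPKM, with a mean of 307 ± 26.5 FPKM (n = 3) and rank 109 among protein-coding genes. *Abca3*, the lipid pump of the lamellar body, was at 13.6, 15.7 and 15.4 FPKM and rank 3122. *Lamp3*, a membrane protein of the same organelle, was at 12.4, 14.7 and 13.1 FPKM and rank 3413. *Sftpc* alone thus made up most of the summed level of the list, which was 5642, 5647 and 4992 FPKM, with a mean of 5427 ± 377 FPKM. *Sftpb*, *Abca3* and *Lamp3* were each highest in replicate 2, and for all 4 genes the libraries lay close together. In GRCm38 *Sftpc* (ENSMUSG00000022097) lies at chr14:70520949-70524081 and *Sftpb* (ENSMUSG00000056370) at chr6:72304610-72314371.

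The 20 further AT2 markers were all expressed, with a median of 31.2 FPKM against 1.00 for protein-coding genes and 0 for all genes. Their summed level was 4110.4, 4572 and 4113 FPKM, most of it *Lyz2*. The collectins *Sftpa1* and *Sftpd*, surfactant proteins that bind microbes, were at 269, 253 and 237 FPKM and at 77.1, 81.8 and 83.5 FPKM. The chemokine *Cxcl15*, also called lungkine, was at 136, 115 and 118 FPKM, and *Napsa*, the protease that processes surfactant protein precursors, was at 76.9, 81.7 and 67.0 FPKM. For these 4 genes the libraries lay close together. *Slc34a2*, the phosphate transporter of the AT2 cell surface, stood low at 1.67, 1.96 and 2.29 FPKM, and *Etv5*, a transcription factor that maintains AT2 cells, was at 4.85, 4.86 and 4.95 FPKM. The alarmin *Il33* was at 4.20, 6.55 and 6.26 FPKM and the FGF receptor *Fgfr2* at 7.67, 9.47 and 9.10 FPKM. *Acoxl* was the lowest of the list, at 1.11, 1.66 and 1.10 FPKM. *Lpcat1*, which remodels surfactant phospholipid, was highest in replicate 1, at 36.1, 17.7 and 18.4 FPKM, and *Ctsh* was lowest there, at 85.8, 146 and 171 FPKM.

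Several genes of the Krt8-high transitional state, which AT2 cells enter on the way to AT1 cells, stood among the most abundant transcripts. All 18 genes of the list were expressed, with a median of 233 FPKM. The list summed to 7539.6, 9528 and 8899 FPKM, lowest in replicate 1. *Krt8* was at 1445, 1917 and 1783 FPKM, with a mean of 1715 ± 243 FPKM (n = 3), and *Krt18*, its filament partner, was at 906, 1134 and 1067 FPKM. *Krt19* was at 832, 1019.6 and 1039.7 FPKM and *Krt7* at 296, 348 and 371 FPKM. *Lgals3* was at 1511, 2006 and 1546 FPKM, with replicate 2 highest. The cornified envelope gene *Sprr1a* was at 583, 924 and 925 FPKM, lowest in replicate 1, the 14-3-3 protein *Sfn* was at 637, 749.8 and 688 FPKM and the tight junction protein *Cldn4* was at 514, 577 and 563 FPKM. *Cdkn1a*, which encodes the cell cycle inhibitor p21, was at 333, 362 and 335 FPKM and so ranked 94 among protein-coding genes. The EGF receptor ligands *Areg* and *Hbegf* were at 86.3, 119.8 and 137 FPKM and at 22.3, 23.9 and 25.3 FPKM. *Itgb6*, an integrin chain that activates TGF-β, was at 16.3, 19.7 and 23.8 FPKM, and the iron-binding *Lcn2* was lowest of the list, at 13.0, 13.5 and 9.94 FPKM. *Krt8* thus exceeded *Sftpb* in every library, while *Sftpc* exceeded *Krt8* in every library. Members such as *Krt8*, a keratin of simple epithelium, are not particular to this state. Which cells of the culture expressed them was not tested.

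AT1 genes were present as well, but unevenly: 11 of 14 were expressed, with a median of 24.6 FPKM. The number was 13 at 0.5 FPKM, 1 CPM or 1 TPM. *Gprc5a*, an orphan receptor also known from other lung epithelium, was at 1006, 1352 and 1338 FPKM, and *Ager*, the receptor RAGE of AT1 cells, was at 206, 264 and 262 FPKM. *Emp2*, a membrane protein of AT1 cells, was at 118, 157 and 152 FPKM, the atypical homeodomain protein *Hopx* at 76.6, 83.2 and 90.2 FPKM and the water channel *Aqp5* at 57.2, 77.4 and 69.7 FPKM. These 5 genes were lowest in replicate 1. *Pdpn*, which encodes podoplanin, was highest in replicate 1, at 53.6, 20.3 and 29.8 FPKM, and *Cav1*, which encodes caveolin-1, was highest in replicate 3, at 6.22, 3.99 and 22.0 FPKM. Other AT1 markers did not reach 1 FPKM in each library: *Rtkn2* was at 0.722, 1.13 and 0.937 FPKM, *Spock2* at 0.821, 0.557 and 0.529 FPKM and *Igfbp2* at 0.341, 0.477 and 0.638 FPKM. The list summed to 1619.6, 2065 and 2079.9 FPKM, most of it *Gprc5a*, and to 613, 714 and 742 FPKM without that gene. In RNA from a whole culture, a small number of cells of a type and a low RNA content per cell cannot be told apart, and the same holds for genes shared by several states.

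**Figure D2:**
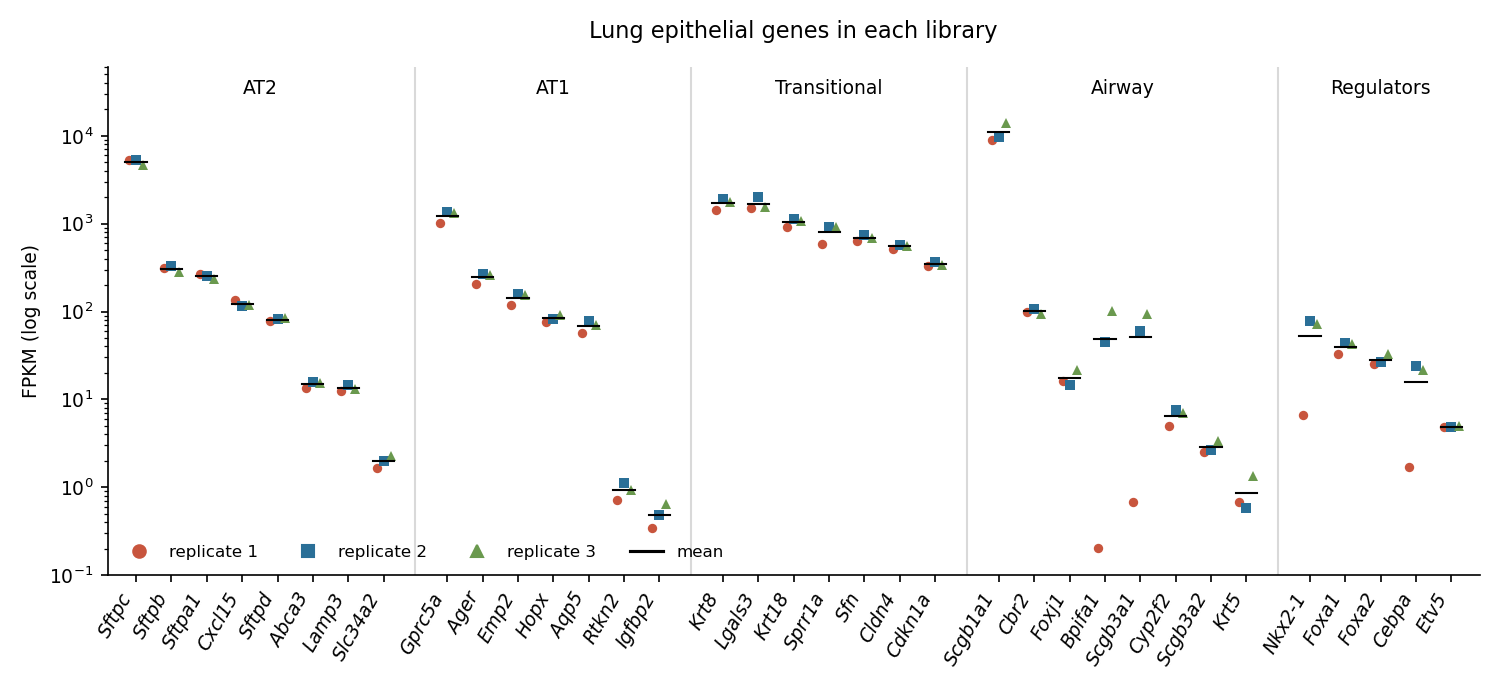
FPKM (vertical, log scale) of lung epithelial genes in each library, grouped as AT2 genes, AT1 genes, genes of the transitional state, airway genes and transcriptional regulators, with points for replicates 1 to 3 and a bar for the mean. The points of most genes lie close together, while *Bpifa1*, *Scgb3a1*, *Nkx2-1* and *Cebpa* lie far lower in replicate 1.

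The transcription factors that set lung epithelial identity were expressed in 20 of 24 cases, with a median of 9.63 FPKM. The number was 21 at 0.5 FPKM or 1 TPM and 24 at 1 CPM. *Nkx2-1*, the master regulator of lung epithelium, was at 6.57, 78.1 and 71.8 FPKM, and *Cebpa*, which drives AT2 maturation, was at 1.71, 24.1 and 21.4 FPKM. Both were far lower in replicate 1 than in the other libraries, and without it their means were 74.9 and 22.8 FPKM in place of 52.1 and 15.7 FPKM. The counts behind these values were 1536, 16995 and 17899 for *Nkx2-1* and 371, 4867 and 4955 for *Cebpa*, a gap far wider than counting error. *Sftpc* and *Sftpb*, which NKX2-1 and C/EBPα are known to activate, showed no such gap, and the neighbouring transcript *Sfta3-ps*, chosen after its values were seen, had 4796, 5701 and 7014 counts. The cause of the gap was not tested. *Nkx2-1* lies at chr12:56531958-56536908 and *Cebpa* at chr7:35119293-35121928 in GRCm38. The forkhead factors *Foxa1* and *Foxa2*, which open chromatin at lung genes, were at 32.4, 43.3 and 42.2 FPKM and at 25.5, 26.4 and 32.6 FPKM. *Elf3* was at 41.2, 50.6 and 49.1 FPKM, *Klf5* at 38.3, 36.4 and 34.8 FPKM and *Gata6* at 9.86, 10.8 and 10.2 FPKM. The Hippo pathway effectors *Wwtr1* (TAZ) and *Yap1* were at 34.3, 30.8 and 28.9 FPKM and at 15.1, 16.2 and 16.4 FPKM. *Sox2*, a factor of the conducting airway, was at 3.32, 4.92 and 7.24 FPKM, whereas *Sox9*, a factor of the embryonic tip, stayed below 1 FPKM at 0.667, 0.225 and 0.479 FPKM. *Tead1*, *Foxp2* and *Elf5* also missed 1 FPKM in at least 1 library.

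Epithelial adhesion genes were expressed in 19 of 21 cases, with a median of 46.9 FPKM. The cadherin *Cdh1*, which joins epithelial cells, was at 274, 325 and 326 FPKM and *Epcam* at 82.6, 110.3 and 108 FPKM. *Cldn18*, the claudin of the alveolus, was at 209, 337 and 288 FPKM, and *Cldn3* was at 274, 366 and 299 FPKM. *Cldn4* was the highest of the list, and *Cldn1* and *Cldn2* were the members below 1 FPKM, *Cldn2* with 6, 0 and 4 counts. Replicate 1 was the lowest library in the summed level, 1974, 2451 and 2299.6 FPKM. Genes of mesenchymal transition were expressed in 4 of 10 cases, near the 47.2% of all protein-coding genes, or in 6 at 1 TPM and 7 at 1 CPM, with a median of 0.754 FPKM, or 0.542 FPKM without replicate 1. *Vim*, the intermediate filament vimentin, was at 60.3, 28.1 and 44.5 FPKM, the matrix protein *Fn1* at 31.2, 25.9 and 40.6 FPKM, *S100a4* at 53.0, 25.2 and 8.05 FPKM and *Snai1* at 4.43, 2.20 and 3.34 FPKM. The repressors *Zeb1*, *Zeb2*, *Snai2*, *Twist1* and *Twist2* and the cadherin *Cdh2* did not reach 1 FPKM in each library. Their list summed to 153, 82.9 and 99.1 FPKM and was highest in replicate 1, beside the leukocyte and stromal genes given further on, whose part in this was not tested.

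Genes of integrins and basement membrane were expressed in 15 of 17 cases, with a median of 14.8 FPKM and sums of 623, 624 and 682 FPKM. The shared integrin chain *Itgb1* led with 176, 159 and 180.2 FPKM, followed by the collagen IV chain *Col4a1* at 89.2, 90.5 and 95.5 FPKM. The laminin chain *Lamb3* was at 69.9, 88.5 and 85.0 FPKM, while the chain *Lama3* was at 2.39, 3.03 and 4.15 FPKM. *Itga3*, a laminin receptor chain, was at 49.2, 46.8 and 54.7 FPKM. *Tnc*, which encodes tenascin-C, was lowest in replicate 2, at 17.1, 4.92 and 13.5 FPKM, and *Itga1* and *Itgb8* were not expressed.

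Lipid synthesis for surfactant was represented by all 18 genes of its list, with a median of 14.2 FPKM and sums of 471, 495 and 398 FPKM. The desaturase *Scd1* was at 126, 142 and 152 FPKM and *Acly*, which makes cytosolic acetyl-CoA, was at 51.2, 50.6 and 49.8 FPKM. The fatty acid synthase *Fasn* was at 25.5, 27.1 and 27.1 FPKM and its regulator *Srebf1* at 11.4, 12.3 and 10.5 FPKM. *Scd2* was far lower in replicate 3, at 85.9, 111 and 14.2 FPKM, and this gap sets replicate 3 as the lowest library of the list. Of the path to phosphatidylcholine, the choline kinase *Chka* was at 8.45, 9.08 and 10.3 FPKM and *Pcyt1a*, which makes CDP-choline, was at 3.73, 3.43 and 3.36 FPKM. All 13 genes of cholesterol synthesis and uptake were expressed, with a median of 24.7 FPKM and sums of 349, 347 and 321 FPKM. The synthase *Hmgcs1* was at 47.9, 49.8 and 46.1 FPKM and *Idi1*, an isomerase of the pathway, was at 38.6, 40.6 and 40.2 FPKM, both close between the libraries. All 18 genes of the lamellar body and lysosome were expressed, with a median of 34.8 FPKM. *Ctsd* led them with 796, 844 and 681 FPKM, ahead of *Lamp1* at 413, 468 and 448 FPKM and the cholesterol carrier *Npc2* at 198, 209 and 199 FPKM. *Psap* and *Lipa*, genes of the lysosome that macrophages also express, were highest in replicate 1, at 285, 166 and 143 FPKM and at 6.84, 1.89 and 1.63 FPKM. The lysosomal list summed to 2383, 2361 and 2115 FPKM.

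Ion and water transport genes were expressed in 10 of 13 cases, with a median of 15.3 FPKM and sums of 568, 658 and 675 FPKM. *Atp1b1*, a chain of the sodium pump, was at 155, 169.8 and 182 FPKM. Of the epithelial sodium channel, which clears alveolar fluid, *Scnn1a* was at 102, 128 and 136 FPKM, *Scnn1g* at 15.1, 19.3 and 22.3 FPKM and *Scnn1b* at 10.3, 11.9 and 14.3 FPKM. The α chain thus exceeded the other chains in each library. The chloride channels *Ano1* and *Cftr* were at 39.8, 47.8 and 52.8 FPKM and at 5.38, 4.89 and 5.16 FPKM. *Slc26a4* and *Aqp4* were below 1 FPKM, and the proton pump *Atp12a* had no count.

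Receptors for niche signals were expressed in 15 of 18 cases, with a median of 7.28 FPKM and nearly equal sums of 171, 171 and 172 FPKM. *Erbb3*, a receptor for neuregulin, was at 36.9, 42.5 and 38.2 FPKM, above *Erbb2* at 11.4, 13.5 and 13.3 FPKM and the EGF receptor *Egfr* at 4.14, 2.61 and 3.26 FPKM. The TGF-β receptor *Tgfbr2* was at 27.4, 27.2 and 27.4 FPKM and the BMP receptor *Bmpr1a* at 17.8, 17.8 and 18.3 FPKM. Of the Wnt pathway, the coreceptors *Lrp5* and *Lrp6* were expressed, whereas the target gene *Axin2* was at 1.28, 0.774 and 0.743 FPKM, the R-spondin receptor *Lgr4* at 0.982, 0.830 and 1.11 FPKM and *Lgr5* near 0, with 41, 35 and 35 counts.

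The gene that the study floxed was transcribed in this group. *Ahr* (ENSMUSG00000019256, chr12:35497974-35535038 in GRCm38) was at 6.35, 6.25 and 6.47 FPKM, with a mean of 6.36 ± 0.115 FPKM (n = 3) and rank 5913 among protein-coding genes. Its nuclear partner *Arnt* was at 4.08, 3.37 and 3.77 FPKM. The chaperones that hold AhR in the cytoplasm were far more abundant, *Hsp90ab1* at 993, 1023 and 1007 FPKM and *Ptges3* (p23) at 85.5, 85.7 and 91.2 FPKM. Known AhR targets were detected in PBS alone: *Cyp1b1* was at 53.7, 60.8 and 61.1 FPKM, *Tiparp* at 25.1, 23.8 and 22.3 FPKM and *Cyp1a1* at 10.3, 6.66 and 6.28 FPKM. *Cyp1a1*, the classical reporter of AhR activity, was highest in replicate 1. *Nqo1* and *Aldh3a1*, which other pathways also control, were at 71.9, 58.2 and 55.8 FPKM and at 23.3, 41.3 and 30.0 FPKM. The AhR repressor *Ahrr* was below 1 FPKM at 0.394, 0.274 and 0.218 FPKM, as was *Arnt2*, and *Cyp1a2* had no count. In all 10 of 13 genes of the pathway were expressed, with a median of 23.7 FPKM and sums of 1305, 1339 and 1313 FPKM. Most of this was *Hsp90ab1*, and without it the sums were 312, 316 and 306 FPKM.

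Airway epithelial genes were present beside the alveolar ones, led by *Scgb1a1*. Of the club cell list 4 of 8 were expressed, a share close to the 47.2% of all protein-coding genes, or 6 without replicate 1, with a median of 27.5 FPKM, or 39.9 FPKM without it. *Scgb3a1* was at 0.688, 60.1 and 92.5 FPKM and *Bpifa1*, a secreted protein of the upper airway, was at 0.202, 45.0 and 100.3 FPKM. *Scgb3a1* had 34, 2754 and 4855 counts and *Bpifa1* had 26, 5320 and 13598 counts, so both were near absent in replicate 1 and present in both other libraries. *Cbr2*, a carbonyl reductase of club cells, was at 98.9, 108 and 94.5 FPKM, whereas *Cyp2f2* and *Scgb3a2*, which also mark club cells, were at 4.99, 7.57 and 6.94 FPKM and at 2.53, 2.64 and 3.36 FPKM. *Upk3a* had no count. The sums of the list were 9100.4, 10019 and 14404 FPKM, and those without *Scgb1a1* were 107, 223 and 298 FPKM.

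Of the multiciliated cell list 6 of 12 were expressed, close to the 47.2% of all protein-coding genes, with a median of 3.28 FPKM and sums of 71.3, 77.5 and 95.9 FPKM, highest in replicate 3. At 1 CPM the number was 10 of the list and 12308 of the 21951 protein-coding genes. *Foxj1*, the master regulator of motile cilia, was at 16.2, 14.4 and 21.6 FPKM, the microtubule protein *Tppp3* at 21.2, 23.1 and 27.5 FPKM and the radial spoke protein *Rsph1* at 10.3, 12.6 and 14.2 FPKM. The axonemal dyneins *Dnah5* and *Dnah9* stayed below 1 FPKM, but *Dnah5* had 691, 485 and 783 counts and *Dnah9* had 537, 525 and 784 counts. The basal cell list had 3 of 7 expressed and sums of 11.2, 10.8 and 16.0 FPKM, with *Krt17* highest at 5.77, 5.83 and 9.47 FPKM. Its defining members were lower: *Krt5* was at 0.685, 0.575 and 1.33 FPKM and *Trp63*, the p63 factor of basal cells, had 0, 8 and 8 counts. Of the goblet cell list 0 of 6 were expressed, the sums were 0.411, 0.650 and 0.631 FPKM, the mucin gene *Muc5ac* had 14, 8 and 14 counts and *Muc5b* had 16, 0 and 30 counts. The neuroendocrine list had 1 of 7 expressed, *Cplx2* at 3.60, 3.12 and 3.80 FPKM, and sums of 4.58, 6.80 and 5.91 FPKM, with the defining *Chga* at 0, 19 and 27 counts. Its number was 2 at 0.5 FPKM or 1 TPM and 3 at 1 CPM. The tuft cell list had 2 of 6 expressed, *Dclk1* and *Ltc4s*, and sums of 5.66, 5.26 and 4.63 FPKM, with *Pou2f3*, the factor that defines tuft cells, at 16, 4 and 0 counts and *Il25* at no count.

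Genes of white blood cells were found in every library, and most genes of lymphocytes, macrophages and dendritic cells were highest in replicate 1. Granulocyte genes, described further on, are not among them. Of the 64 genes of the 6 leukocyte lists (all leukocytes, alveolar macrophages, monocytes and macrophages, T and NK cells, B cells and dendritic cells) 60 were highest in replicate 1 by CPM, with a median ratio of 7.25 to the mean of the other libraries. For comparison, 36.1% of 12990 protein-coding genes with a mean of 1 CPM or more were highest in replicate 1. *Ptprc*, which encodes the CD45 antigen used in the depletion, was at 3.31, 0.431 and 0.164 FPKM, with 4988, 611 and 265 counts. Of the list of all leukocytes 7 of 12 were expressed, against 47.2% of all protein-coding genes, but 1 at a threshold of 2 FPKM and 10 without replicate 3, and the sums were 237, 50.7 and 19.0 FPKM, with *Tyrobp*, a signalling adaptor of myeloid cells, as the most abundant gene at 40.4, 10.7 and 1.98 FPKM. The mean sum was 102 ± 118 FPKM, or 34.8 FPKM without replicate 1.

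The most abundant of these transcripts came from a B cell gene. The immunoglobulin light chain gene *Igkc* was at 1796, 318 and 173 FPKM, and all immunoglobulin genes together took 0.359%, 0.0641% and 0.0360% of the counts. The heavy chain gene *Ighm* was at 100.0, 12.6 and 4.84 FPKM and the receptor chain *Cd79a* at 43.5, 5.70 and 2.19 FPKM. The list sums were 1981, 345 and 185 FPKM, or 185, 27.2 and 11.7 FPKM without *Igkc*, with 4 of 7 expressed against the same share, and the defining markers *Ms4a1* and *Pax5* were below 1 FPKM in replicate 3. Of the T and NK cell list 0 of 12 reached 1 FPKM in all 3 libraries, but 10 did so in at least 1 library and 3 in both others when replicate 3 was left out. The sums were 59.0, 8.02 and 1.39 FPKM, led by *Trbc2*, a constant part of the T cell receptor, at 20.8, 3.21 and 0.390 FPKM. *Cd3e* was at 1.82, 0.257 and 0.0105 FPKM, and *Cd4*, *Cd8a* and *Nkg7* had no count in replicate 3. T cell receptor genes together had 5498, 897 and 469 counts. The dendritic cell list had 1 of 7 expressed, the migration receptor *Ccr7* at 37.2, 7.64 and 1.11 FPKM, and sums of 40.2, 8.88 and 1.44 FPKM, whereas *Clec9a* had a count in replicate 1 alone and *Flt3* was at 0.974, 0.211 and 0.0416 FPKM. All 3 lists had their lowest sums in replicate 3. The mean sum of the B cell list was 837 ± 994.4 FPKM, or 265 FPKM without replicate 1. The mean sum of the T and NK cell list was 22.8 ± 31.5 FPKM, or 4.71 FPKM without it, and that of the dendritic cell list was 16.9 ± 20.6 FPKM, or 5.16 FPKM without it. With *Ccr7* left out, the sums of the dendritic cell list were 3.02, 1.24 and 0.326 FPKM.

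Sums of the macrophage lists varied less, and their leading genes are also known from epithelia. Of the alveolar macrophage list 6 of 16 were expressed, against 47.2% of all protein-coding genes, but 9 at 1 CPM and 10 at 1 TPM. At 1 TPM 11865 of the 21951 protein-coding genes were expressed. The list median was 1.87 FPKM, or 0.646 FPKM without replicate 1. Its sums were 180.1, 103 and 88.7 FPKM, led by *Plet1* at 62.5, 64.1 and 60.1 FPKM, which was nearly equal in the libraries. Without *Plet1* the sums were 118, 38.5 and 28.6 FPKM. The defining markers *Siglecf* and *Marco* were at 1.09, 0.0880 and 0.0833 FPKM and at 3.89, 0.678 and 0.154 FPKM, and the chitinase-like *Chil3* was at 24.7, 7.92 and 2.97 FPKM. The monocyte and macrophage list had 2 of 10 expressed and sums of 28.8, 31.0 and 29.0 FPKM, most of it the LPS coreceptor *Cd14* at 17.6, 25.9 and 27.3 FPKM. Without *Cd14* the sums were 11.2, 5.06 and 1.70 FPKM, highest in replicate 1. *Csf1r*, the receptor that macrophages need, was at 3.01, 0.852 and 0.461 FPKM, and *C1qa*, *C1qb* and *C1qc* had no count in replicate 3. Whether the abundance of *Lyz2* includes RNA of such cells was not tested.

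Granulocyte genes followed another order, with replicate 3 far below both other libraries. The neutrophil list had 3 of 11 expressed, or 6 without replicate 3, and sums of 55.3, 64.7 and 8.94 FPKM. *S100a9* and *S100a8*, which form calprotectin, were at 22.7, 27.5 and 3.25 FPKM and at 17.6, 14.4 and 2.80 FPKM, and the granule gene *Ngp* was at 5.600, 12.2 and 1.33 FPKM. *Ly6g*, the defining antigen of mouse neutrophils, had 0, 20 and 0 counts. Of the mast cell and basophil list 0 of 7 were expressed, or 2 without replicate 3, the sums were 4.21, 4.45 and 1.62 FPKM, *Mcpt8* led with 1.98, 2.71 and 0.994 FPKM, and *Mcpt4* and *Tpsb2* had no count. The platelet list had 1 of 4 expressed, or 2 without replicate 3, and sums of 6.58, 13.7 and 13.9 FPKM, led by the chemokine *Ppbp* at 1.12, 8.74 and 12.3 FPKM. Without *Ppbp* the sums were 5.46, 5.01 and 1.59 FPKM, lowest in replicate 3. Red cell genes were near 0: the sums were 3.76, 4.21 and 3.28 FPKM, 2 of 7 were expressed, and *Hbb-bt*, *Alas2* and *Slc4a1* had no count. The expressed members, *Hba-a1* and *Hba-a2*, are near-identical copies, and the split of reads between them is uncertain.

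**Figure D3:**
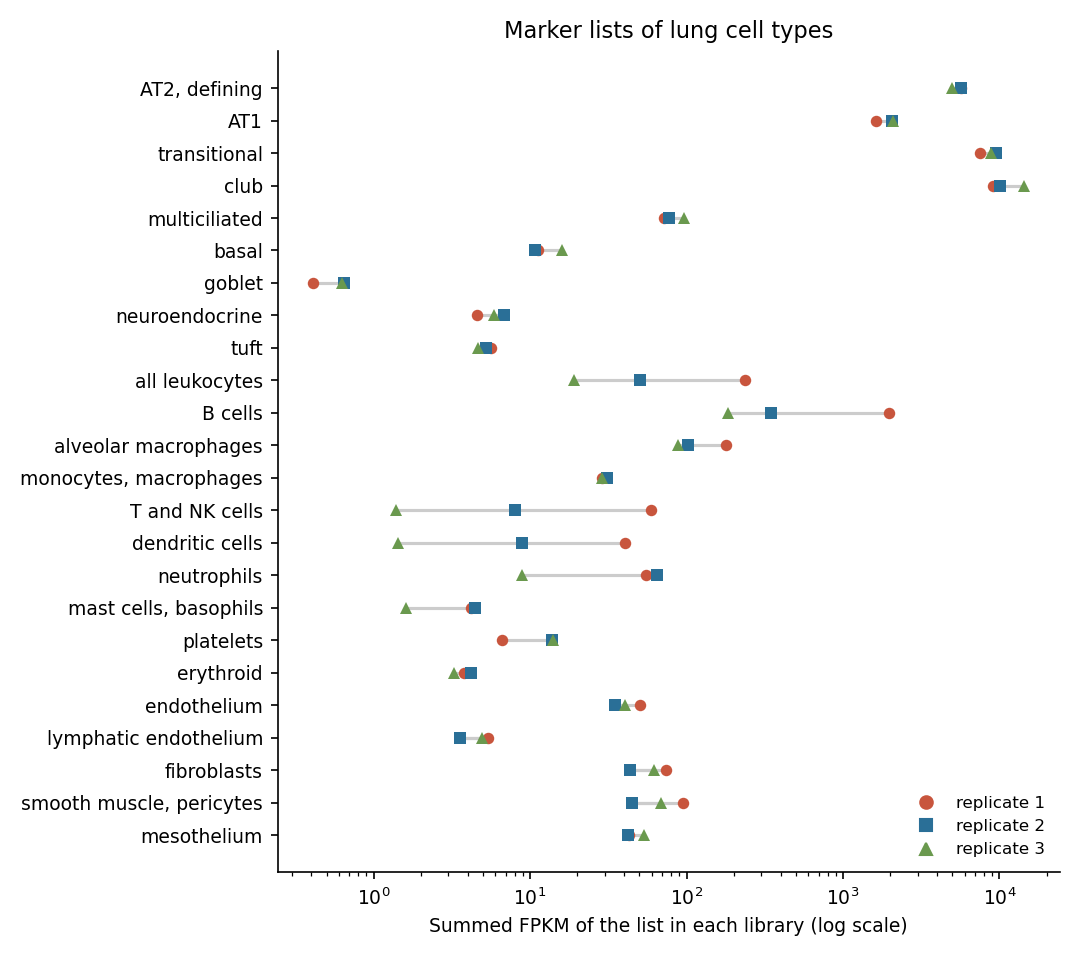
Summed FPKM of each marker list (horizontal, log scale) in the 3 libraries, 1 line per cell type and 1 point per replicate. The alveolar lists lie close together, while the lists of all leukocytes, B cells, T and NK cells and dendritic cells lie far apart, highest in replicate 1.

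Stromal genes were detected throughout, and replicate 2 had the lowest sums of the endothelial, lymphatic, fibroblast and smooth muscle lists. List medians went from 1.02 FPKM (lymphatic) to 1.63 FPKM (smooth muscle and pericyte), against 1.00 for protein-coding genes. The leading genes of several lists were far higher. Of the endothelial list 7 of 15 were expressed, a share close to the 47.2% of all protein-coding genes, or 8 without replicate 1. The number was 4 at 2 FPKM, 11 at 0.5 FPKM or 1 TPM and 14 at 1 CPM, so it depends on the threshold. The list had sums of 50.4, 34.97 and 40.7 FPKM and the junction protein *Esam* as the most abundant gene, at 16.0, 15.4 and 15.5 FPKM. The defining markers *Pecam1* and *Cdh5* were at 4.30, 1.72 and 2.16 FPKM and at 4.12, 1.16 and 2.04 FPKM. The lymphatic list had 1 of 5 expressed, or 2 without replicate 2, but 0 at 2 FPKM, 3 at 0.5 FPKM and 5 at 1 CPM or 1 TPM. It had sums of 5.34, 3.56 and 4.93 FPKM, with *Prox1* at 0.559, 0.460 and 0.428 FPKM and *Ccl21a* at 1.75, 1.04 and 1.77 FPKM. The fibroblast list had 5 of 12 expressed, or 8 without replicate 2, against 47.2% of all protein-coding genes, and sums of 73.9, 43.6 and 62.1 FPKM, led by the matrix Gla protein *Mgp* at 25.8, 21.2 and 26.0 FPKM. Its collagen gene *Col1a1* was at 8.85, 4.21 and 7.75 FPKM, and the receptor *Pdgfra* was at 2.85, 0.629 and 1.60 FPKM. The smooth muscle and pericyte list had 5 of 10 expressed, also close to that share, and sums of 94.4, 45.0 and 68.8 FPKM, led by the actin *Acta2* at 48.9, 20.1 and 33.8 FPKM, with *Myh11* at 1.41, 0.402 and 0.821 FPKM. The fibroblast and smooth muscle lists each had 3 genes expressed at 2 FPKM and 8 at 1 CPM. The mesothelial list had 4 of 5 expressed, but 2 at 2 FPKM and 5 at 0.5 FPKM, 1 CPM or 1 TPM. Its sums were 42.8, 42.1 and 53.3 FPKM, most of it *Msln* at 26.8, 31.2 and 39.4 FPKM, with the defining factor *Wt1* at 0.648, 0.525 and 0.596 FPKM.

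Of the genes of other organs 1 of 12 were expressed, *Mbp* at 17.8, 18.2 and 17.4 FPKM, which besides myelin has shorter transcripts in many tissues. The list summed to 18.8, 18.7 and 18.7 FPKM, *Alb* had 58, 17 and 25 counts, and *Ttr*, *Ins1*, *Ins2*, *Gcg* and *Umod* had no count. Of the antigens and Fc receptors that the isolation acts on 2 of 7 were expressed, with sums of 25.02, 31.6 and 26.1 FPKM. *Ly6a*, which encodes the Sca-1 antigen used in the depletion, was at 13.6, 27.9 and 24.3 FPKM and was the most abundant of them, lowest in replicate 1. *Fcgr3* (CD16) was at 4.82, 2.37 and 1.08 FPKM and *Fcgr2b* (CD32) at 1.15, 0.134 and 0.0296 FPKM.

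Sensors of allergen and of type 2 cytokines were expressed in 12 of 20 cases, against 47.2% of all protein-coding genes, with a median of 3.37 FPKM, or 2.20 FPKM without replicate 1, and sums of 149, 129.8 and 129.8 FPKM. *F2rl1*, which encodes the protease receptor PAR2, led with 34.3, 43.4 and 41.2 FPKM, followed by *F2r* (PAR1) at 18.2, 18.1 and 21.7 FPKM. The adaptor *Myd88* was at 16.5, 16.8 and 17.2 FPKM. Among Toll-like receptors *Tlr4* was at 7.93, 6.69 and 7.08 FPKM, *Tlr2* at 8.42, 7.60 and 5.33 FPKM, *Tlr3* at 3.03, 2.33 and 1.88 FPKM and *Tlr5* at 1.71, 1.72 and 1.74 FPKM, while *Tlr1*, *Tlr6*, *Tlr7*, *Tlr8* and *Tlr9* were not expressed and were highest in replicate 1. The IL-4 receptor chain *Il4ra* was at 8.58, 7.08 and 7.51 FPKM and its partner *Il13ra1* at 12.0, 11.6 and 11.8 FPKM. *Clec7a*, the dectin-1 receptor of myeloid cells, was at 17.3, 3.24 and 1.33 FPKM and so had the order of the leukocyte lists.

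Cytokines and chemokines were expressed in 13 of 23 cases, against 47.2% of all protein-coding genes, with a median of 1.79 FPKM, or 1.38 FPKM without replicate 1. *Cxcl15* and *Cxcl16*, the latter a membrane-bound chemokine, led the list, *Cxcl16* with 62.8, 84.4 and 70.6 FPKM. *Csf1* was at 24.4, 7.78 and 12.6 FPKM, *Ccl2* at 17.3, 4.15 and 3.39 FPKM, *Tgfb1* at 8.98, 5.85 and 5.71 FPKM and *Il1b* at 3.27, 0.495 and 0.157 FPKM, each highest in replicate 1 beside the leukocyte genes, whose part in these values was not tested. Of the alarmins that epithelium releases toward type 2 immunity, *Il33* was expressed, *Tslp* had 8, 0 and 4 counts and *Il25* had none. The list summed to 295, 247 and 241 FPKM, and the number expressed was 9 at 2 FPKM and 19 at 1 TPM.

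Antimicrobial and complement genes were expressed in 11 of 15 cases, with a median of 10.4 FPKM and sums of 4254, 4601 and 4071 FPKM. Besides the lysozymes the list was led by the protease inhibitor gene *Wfdc2* at 468, 585 and 605 FPKM and *Slpi* at 166, 141 and 119 FPKM. Complement *C3* was at 42.1, 33.4 and 31.8 FPKM, the defensin gene *Defb1* had no count, and *Reg3g* had 0, 16 and 40 counts. MHC class II presentation, which AT2 cells are known to carry, had 7 of 8 expressed and a median of 20.7 FPKM, or 14.6 FPKM without replicate 1. The invariant chain *Cd74* was at 361, 308 and 231 FPKM, *H2-Ab1* at 44.9, 20.1 and 17.7 FPKM and *H2-Aa* at 36.4, 20.04 and 13.9 FPKM, with sums of 564, 405 and 293 FPKM. The transactivator *Ciita* was below 1 FPKM at 0.694, 0.180 and 0.0586 FPKM. Of MHC class I genes 6 of 7 were expressed, with sums of 1036, 911 and 774 FPKM and *B2m*, the shared light chain, at 506, 339.5 and 275 FPKM. The MHC class II sums were highest in replicate 1 and lowest in replicate 3, beside the leukocyte genes, whose part in this was not tested. The class I sums had the same order, but without *B2m* they were 530.3, 572 and 499 FPKM, highest in replicate 2.

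Core autophagy genes, which build and load the autophagosome, were expressed in 32 of 33 cases, with a median of 7.53 FPKM and sums of 1415, 1537 and 1334 FPKM. *Sqstm1*, which encodes the receptor p62, was at 616, 666 and 575 FPKM, with a mean of 619 ± 45.3 FPKM (n = 3). The LC3 family members *Map1lc3a* and *Map1lc3b* were at 73.1, 78.7 and 71.3 FPKM and at 25.7, 31.4 and 31.6 FPKM, and the related *Gabarap* was higher, at 222, 257 and 236 FPKM. *Gabarapl1* was lowest in replicate 3, at 145, 145 and 64.6 FPKM. The conjugation factor *Atg5* was at 18.9, 22.3 and 21.3 FPKM, *Becn1* of the nucleation complex at 10.4, 11.9 and 11.6 FPKM and the initiating kinase *Ulk1* at 5.88, 6.73 and 6.72 FPKM. *Calcoco2*, which encodes the receptor NDP52, was the member below 1 FPKM, at 0.169, 0.0833 and 0.0897 FPKM and 23, 11 and 13 counts.

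All 19 genes of proliferation were expressed at modest levels, with a median of 5.75 FPKM and sums of 267, 264 and 304 FPKM. *Mki67*, a marker of cycling cells, was at 2.74, 2.57 and 4.12 FPKM, *Top2a* at 3.78, 3.83 and 6.42 FPKM and *Ccnb2* at 3.86, 6.34 and 8.67 FPKM, each highest in replicate 3. The replication clamp *Pcna*, also a p53 target, was at 89.9, 96.8 and 92.9 FPKM, and the G1 cyclin *Ccnd1* was at 75.9, 75.0 and 83.4 FPKM.

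All 27 genes of the early and stress responses were expressed, with a median of 50.2 FPKM and sums of 2460.0, 2375 and 2343 FPKM. The chaperones *Hsp90aa1* and *Hspa5* were at 359, 374 and 382 FPKM and at 305, 276 and 265 FPKM. *Hmox1*, the heme oxygenase, was highest in replicate 1, at 234, 167 and 168 FPKM. *Atf4*, the factor of the integrated stress response, was at 163, 169 and 162 FPKM, *Atf3* at 63.2, 67.5 and 66.3 FPKM and the metallothionein gene *Mt2* at 184, 177 and 163 FPKM. The immediate early genes *Fos* and *Egr1*, which are known to respond within minutes to tissue dissociation, were lower, at 7.68, 6.74 and 7.80 FPKM and at 6.58, 5.16 and 5.83 FPKM, whereas *Jun* was at 107, 112 and 116 FPKM. *Hspa1a* and *Hspa1b* are near-identical copies, so their separate values are uncertain. *Gdf15*, a stress-induced cytokine, was lowest in replicate 2, at 34.8, 10.7 and 24.7 FPKM.

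All 12 genes of glycolysis and hypoxia were expressed, with a median of 31.7 FPKM and sums of 1202, 1280.3 and 1292 FPKM. *Pkm* led with 337, 360.1 and 368 FPKM, followed by *Aldoa* at 291, 336 and 315 FPKM and *Ldha* at 131, 136 and 145 FPKM. *Gapdh* was at 8.61, 9.19 and 6.55 FPKM, below most other genes of the list, and it has many processed pseudogenes with which it can share reads, so its level is uncertain. All 12 reference genes were expressed, with a median of 192 FPKM and sums of 6051, 6279.8 and 6059 FPKM, led by *Eef1a1* at 2301, 2484 and 2465 FPKM. *Actb* was at 1016, 943 and 971 FPKM, *Hprt* at 109, 114 and 115 FPKM and *Tbp*, the TATA-binding protein, at 1.37, 1.37 and 1.43 FPKM, each close between the libraries. Of the sex-linked transcripts 4 of 5 were expressed, with sums of 32.3, 24.8 and 33.0 FPKM. The Y-linked *Eif2s3y* and *Ddx3y* were at 15.6, 12.7 and 18.8 FPKM and at 13.3, 9.37 and 11.3 FPKM, whereas *Xist*, which silences 1 X chromosome in females, had 12, 18 and 6 counts.

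The spread between the libraries was wider than counting error at the median gene, which separate libraries usually show. Over 12990 protein-coding genes with a mean of 1 CPM or more, the median coefficient of variation (CV, the SD as a percent of the mean) was 10.3%, against 2.19% from counting alone, and 75.3% of the genes lay under 20%. Without replicate 1, 2 or 3 the median CV of the same genes was 6.79%, 8.60% and 10.1%, each from fewer libraries. For the 100 protein-coding genes with the highest mean FPKM the median CV was 8.54%. The common biological coefficient of variation of edgeR over genes with a mean of 1 CPM or more was 0.345, and it was 0.233 without replicate 1, 0.402 without replicate 2 and 0.343 without replicate 3. A CV over 100% was found in 372 genes, or in 124 genes without replicate 1, 428 without replicate 2 and 236 without replicate 3. Among the 20 protein-coding genes with the largest CV were the T cell genes *Cd8a*, *Cd8b1*, *Cd4*, *Icos* and *Nkg7* and the cytokine receptor chain *Csf2rb*, all highest in replicate 1. *Csf2rb* had 3440, 214 and 58 counts. Others were found in 1 library with no or almost no count elsewhere: the histone gene *Hist2h2aa1* had 0, 0 and 1532 counts, *Gm28048* had 3123, 2 and 0 counts and *Nanp* had 504, 2 and 0 counts. *Hist2h2aa1* has near-identical paralogs and *Gm28048* overlaps other genes, so their values are uncertain.

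**Figure D4:**
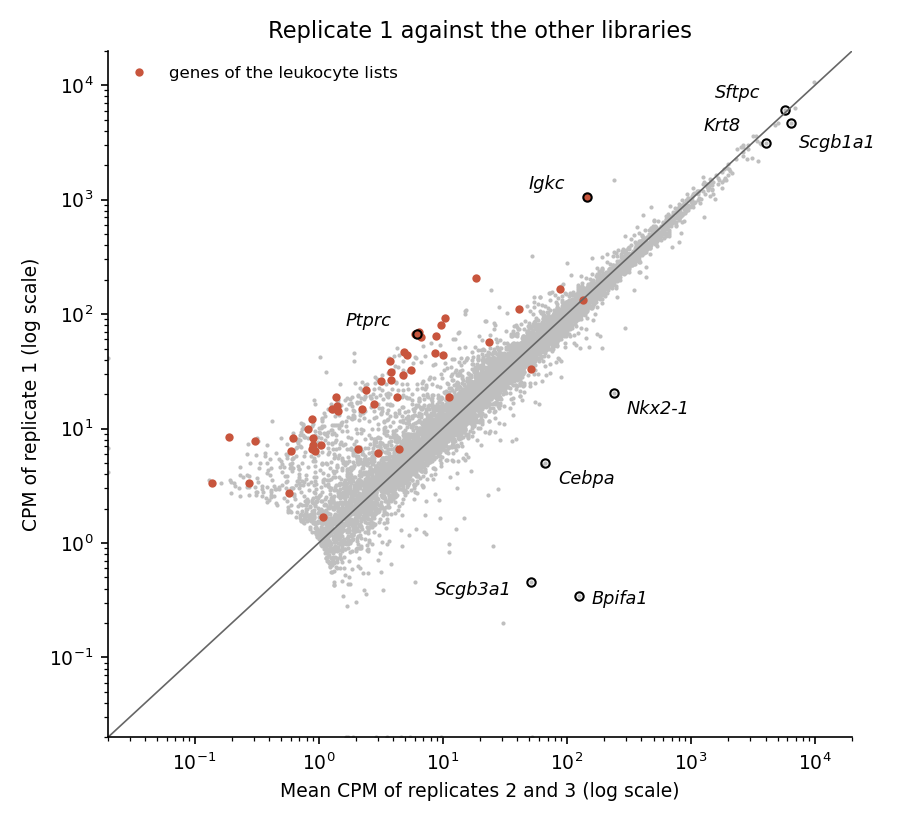
CPM of replicate 1 (vertical, log scale) against the mean CPM of replicates 2 and 3 (horizontal, log scale) for protein-coding genes with a mean of 1 CPM or more (grey) and genes of the 6 leukocyte lists (red), with values off the axes drawn at their edge and a line of equal values. Most leukocyte genes lie above the line, *Nkx2-1*, *Cebpa*, *Bpifa1* and *Scgb3a1* lie far below it, and *Sftpc*, *Krt8* and *Scgb1a1* lie close to it.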

How the data were processed

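Analysis started from the deposited counts and the deposited FPKM of the submitters for 55450 genes, with Ensembl identifiers that were all matched to GENCODE M21. According to the methods of the authors, reads were aligned to GRCm38 with STAR 2.7.2b, the alignments were annotated with Partek and RefSeq, and expression was taken as counts by Salmon. How the authors made the whole-number counts and the FPKM from this is not given in the sources used here. The small placeholder listed as FPKM beside a count of 0 was set to 0. Libraries were stranded, from poly(A) RNA and 15 cycles of amplification, but the notes do not say that counting used the strand, so overlapping genes on opposite strands cannot be told apart. CPM used TMM of edgeR 4.0.16 in R 4.3.3, and other values used Python 3.11.15 with pandas 2.3.3 and matplotlib 3.10.9. The code for the spread between libraries was tested on simulated counts.

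Named genes come from 48 gene lists, from the 25 genes with the highest mean FPKM, the 25 with the highest mean CPM and the 20 most variable protein-coding genes, and any other is said to be chosen after its values were seen. The members and lists were chosen with earlier results of these data known. No test was made, because a single group has nothing to be compared with. Alternatives tried were other thresholds, CPM and TPM in place of FPKM, other normalizations by DESeq2 1.42.0 or library size, and leaving out each library.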

Additional observations from a re-analysis of the deposited data

How the results depend on the processing

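The number of genes expressed moved from 11500 to between 9721 and 13732 with the threshold or unit, and to 11662 to 11768 with 1 library left out, while protein-coding genes went from 10361 to between 8935 and 12308, and to 10478 to 10528 with 1 library left out. The share of the 10 most abundant genes was 5.29% of counts, but 12.9% of FPKM and 4.69% without mitochondrial genes, and 5.17% to 5.38% with 1 library left out. The share of the 100 most abundant was 19.1%, but 36.0% of FPKM and 17.5% without mitochondrial genes, and 18.8% to 19.3% with 1 library left out. The spread of 0.345 became 0.504 over all genes with a count and 0.217 at 10 CPM or more, and went from 0.233 without replicate 1 to 0.402 without replicate 2. The mean correlation of 0.987 became 0.981 with log2(FPKM + 0.1), and went from 0.983 without replicate 2 to 0.992 without replicate 1. Of the counts of 48 gene lists, 13 changed by more than 1.5 times at 2 FPKM, 5 at 0.5 FPKM, 11 at 1 CPM, 9 at 1 TPM and 6 with 2 of 3 libraries, and others by less. With replicate 1, 2 or 3 left out, 0, 2 and 4 changed by more than 1.5 times. In TPM 589 of 605 gene levels moved from their FPKM value. This was fixed in advance, because TPM rescales all FPKM of a library by a single factor. It changes no level relative to another gene of the same library. Of 589 gene ranks 217 moved by mean CPM, and 23, 0 and 4 moved with replicate 1, 2 or 3 left out. No paired analysis was possible because the result comes from a single group. Levels are those of a whole culture, so cell types cannot be separated, and 3 libraries give a rough SD.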

Other observations

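Gene families give a further view of the culture, with their members chosen after their values were seen. The number expressed of each family is to be read against the 47.2% of all protein-coding genes. Of 49 keratin genes 9 were expressed, and besides those given above *Krt23* was at 82.4, 116 and 89.0 FPKM and *Krt80* at 50.0, 60.7 and 60.3 FPKM. Claudins were expressed in 8 of 23 cases, with *Cldn12* highest in replicate 3, at 15.1, 11.9 and 23.0 FPKM. Of 12 mucin genes 2 were expressed, the membrane mucins *Muc1* at 31.8, 36.5 and 46.5 FPKM and *Muc4* at 2.77, 2.71 and 4.10 FPKM. Secretoglobins were expressed in 3 of 34 cases, and 30 of them had no count, while *Scgb1a1* made up nearly all of the summed level. Of 100 cytochrome P450 genes 16 were expressed, with *Cyp2b10*, an enzyme of xenobiotic metabolism, above *Cyp1b1* at 94.0, 120.5 and 94.1 FPKM. S100 genes were expressed in 12 of 17 cases, with *S100a6* at 985, 1167 and 1255 FPKM behind *S100a11*. Cathepsins were expressed in 12 of 18 cases and laminin chains in 7 of 11 cases, *Lamc1* at 23.8, 20.7 and 21.7 FPKM. None of 39 Hox genes and none of 1093 olfactory receptor genes was expressed in each library, and 1024 of the latter had no count.

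Single genes stood apart in 1 library and are named because of their values, chosen after they were seen. *Spry1*, an inhibitor of receptor tyrosine kinase signalling, was low in replicate 1, with 15, 2056 and 2407 counts. *Pttg1ip* was low there too, at 17.7, 67.3 and 69.4 FPKM, and *Dusp16*, a phosphatase of MAP kinases, was high there, at 13.4, 3.01 and 3.44 FPKM. *mt-Atp6*, a subunit of the ATP synthase, was high in replicate 1, at 1989, 383 and 243 FPKM. Its first bases (7927 to 7969) overlap *mt-Atp8*, which was at 2242, 2540 and 1771 FPKM. The value of *mt-Atp6* is uncertain, and the part of the overlap in its gap was not tested. *Sumo2* was low in replicate 2, at 70.3, 17.1 and 77.4 FPKM, and *Hnrnpa3*, an RNA-binding protein, was high there, at 2.89, 14.9 and 3.25 FPKM. *Nek7* was low in replicate 3, at 16.6, 14.6 and 3.03 FPKM, and *Golm1* was low there, at 19.1, 20.3 and 5.66 FPKM. The causes were not tested.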
